A study of Homo sapiens with 2 samples.

Results

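The genes described here encode the machinery that presents peptides on major histocompatibility complex (MHC) class I molecules. They were chosen by name, and all 9 listed genes (HLA-B, HLA-C, HLA-E, B2M, TAP1, TAP2, TAPBP, ERAP1 and NLRC5) were found among the 16005 genes of the authors' deposited table. The cells were BE(2)-C, an established human neuroblastoma line of wild-type genotype per the labels, which is a single line with amplified MYCN. They were kept for 7 days in EMEM/F12, a classical culture medium, or in HPLM, a medium that copies the metabolites and salts of human plasma. Both media held 10% fetal bovine serum and 1% penicillin-streptomycin. GEO lists 1 sample per medium, and the table holds 3 polyadenylated-RNA libraries per medium. Nothing in the labels says that the libraries came from separate cultures, so p-values measure only the spread between libraries, which may be technical.

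In class I presentation, the proteasome cuts proteins into peptides, the TAP1 and TAP2 transporter carries the peptides into the endoplasmic reticulum, and ERAP1 trims them. Tapasin, the product of TAPBP, holds the transporter next to an empty class I molecule, which is a heavy chain (such as those of HLA-B, HLA-C and HLA-E) bound to its light chain, beta-2 microglobulin (B2M). NLRC5 is the transactivator of class I genes, and interferon raises most of the pathway through factors such as IRF1. Neuroblastoma is known for low class I levels at the cell surface, which T cells need to see a tumour cell.

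Levels are normalised reads, that is, read counts that the authors divided by a factor per library. "Rose" and "fell" are used of genes with an adjusted p under 0.05 in the authors' deposited table, read as HPLM relative to EMEM/F12, and log2 fold changes have the same direction. By this rule 5 of the 9 genes rose (ERAP1, TAP2, HLA-C, TAPBP and B2M), 1 fell (NLRC5), and HLA-B, HLA-E and TAP1 did not pass. Of all 16004 genes with a p-value, 26.8% rose and 28.8% fell, 55.6% together. In edgeR the counts were also 5 and 1, against 32.9% and 31.3% of genes. The median log2 fold change in the authors' deposited table was 0.54 over the 9 genes and 0.0085 over all genes. In 5 of the 9 genes every HPLM library lay above every EMEM/F12 library, as in 33.6% of all genes, and in 1 every HPLM library lay below, as in 35.0% of all genes. The calls of HLA-B, HLA-E and TAP1 depended on 1 library, EMEM/F12 library 3, which is described with the heavy chains.

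The libraries held 17504237 to 21676080 reads. Of the 13 adrenergic neuroblastoma markers all were in the table, with MYCN at 64577 to 77365 normalised reads in EMEM/F12 and 28576 to 30344 in HPLM. Of the 12 blood cell markers only CD14 was among the lines of the table (43.8 to 74.4 normalised reads), and of the 7 endothelial markers only TEK. EMEM/F12 library 3 stood apart from libraries 1 and 2 of its medium, by a chi-square of 9.86 and 8.40 per degree of freedom, where libraries 1 and 2 differed by 1.39. In bulk RNA, a change in the share of cells of a type and a change in RNA per cell cannot be told apart.

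The promoters of the members share short elements known from class I genes. They are shown first because some of the promoter factors measured below are known to bind such elements. RefSeq promoters on GRCh38.p14, from 250 bases before to 50 bases after the start of transcription, matched 7 of the 9 genes. HLA-E and NLRC5 had no entry. Capitals mark the interferon response core (GAAA, any 2 bases, GAAA), a shorter core GAANNGAAA, and the NF-kB consensus, on either strand. The shorter core was added after the sequences were seen. Sequences run 5′ to 3′ on the gene's strand, and those of the first 4 genes stop short of the outermost start in GENCODE.
HLA-B: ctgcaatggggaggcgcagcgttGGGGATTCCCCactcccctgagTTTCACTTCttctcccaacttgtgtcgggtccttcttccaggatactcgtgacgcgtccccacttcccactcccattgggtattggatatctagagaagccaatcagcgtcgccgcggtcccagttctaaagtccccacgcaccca
HLA-C: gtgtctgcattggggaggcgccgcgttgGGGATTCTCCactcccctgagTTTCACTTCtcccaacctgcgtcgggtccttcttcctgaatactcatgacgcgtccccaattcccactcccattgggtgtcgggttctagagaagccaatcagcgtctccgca
B2M: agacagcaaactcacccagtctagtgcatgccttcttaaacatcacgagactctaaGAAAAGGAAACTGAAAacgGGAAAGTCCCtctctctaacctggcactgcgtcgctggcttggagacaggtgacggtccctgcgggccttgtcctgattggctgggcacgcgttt
TAP2: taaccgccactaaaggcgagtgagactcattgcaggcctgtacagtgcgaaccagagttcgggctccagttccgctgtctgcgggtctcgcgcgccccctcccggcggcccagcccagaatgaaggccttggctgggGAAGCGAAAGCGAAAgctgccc
These stretches are chr6:31357189-31357379, chr6:31272131-31272292 and chr6:32838781-32838939 on the minus strand for HLA-B, HLA-C and TAP2, and chr15:44711317-44711486 on the plus strand for B2M. For TAP1 and TAPBP, 30 bases around the interferon response cores are shown, from chr6:32853819-32853848 and chr6:33314079-33314108 on the minus strand. They lie upstream of the RefSeq start but inside the GENCODE gene, whose outermost start is 274 bases (TAP1) and 309 bases (TAPBP) upstream of the RefSeq one.
TAP1: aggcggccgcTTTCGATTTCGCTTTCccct
TAPBP: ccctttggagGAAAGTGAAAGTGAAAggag

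The interferon response core was found in 5 of the 7 promoters (B2M, ERAP1, TAP1, TAP2 and TAPBP), against 3.57% of 35116 promoters of the same length. The shorter core was found in HLA-B, HLA-C and TAP2, against 7.66% of promoters. All 7 held 1 or the other, against 10.6% of promoters. The shorter core was added after these sequences were seen, so its matches and the 7 of 7 cannot be read as enrichment. In TAP2 the 2 cores overlap. The NF-kB consensus was found in 6 of 7 (all but TAP2), against 11.3%, the cyclic AMP response core TGACG in 4 of 7 (HLA-B, HLA-C, B2M and TAP2), against 24.6%, and the CCAAT box in 5 of 7, against 34.6%. Neither TTCNNNGAA, a core of interferon-gamma activated sites, nor the E-box CACGTG was in any of the 7 windows, against 7.66% and 7.26% of promoters. For each gene only the RefSeq promoter nearest the GENCODE start was used. A further TAP1 promoter that was not used held TTCNNNGAA, so this absence depends on the promoter chosen. HLA-B and HLA-C were identical over 226 of 254 aligned columns (89.0%) of the upstream 250 bases. A match describes letters and shows no binding.

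**Figure D1:**
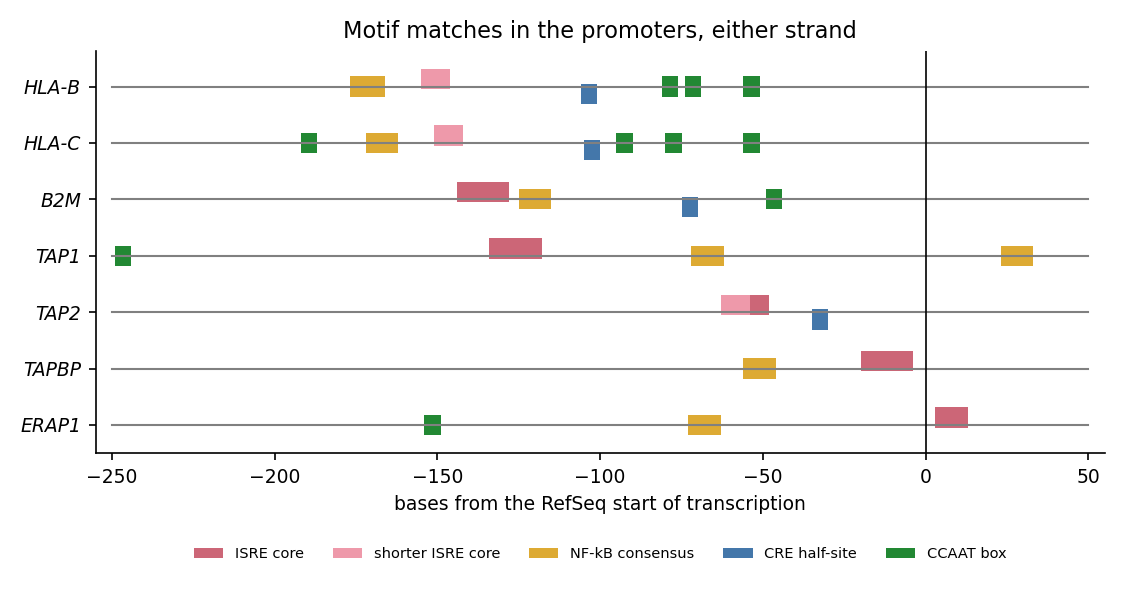
Positions of motif matches on either strand (coloured bars) in the RefSeq promoters of 7 class I genes, in bases from the start of transcription (vertical line). HLA-B and HLA-C carry the NF-kB consensus, the shorter interferon response (ISRE) core and the cyclic AMP response (CRE) core in the same order, with 3 CCAAT boxes in HLA-B and 4 in HLA-C, of which 1 lies upstream of the NF-kB consensus, and B2M carries the same kinds of element with the other ISRE core.

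Of the heavy chain genes among the members only HLA-C passed. The log2 fold changes of HLA-C, HLA-B and HLA-E in the authors' deposited table were all positive (0.61, 0.54 and 0.27). HLA-C (ENSG00000204525, chromosome 6, 31268749 to 31272130, minus strand) encodes a classical heavy chain that is also a ligand of inhibitory receptors on natural killer cells. It stood at 981, 904 and 1238 normalised reads in EMEM/F12 libraries 1 to 3 and at 1654, 1541 and 1576 in HPLM libraries 1 to 3. All HPLM libraries lay above all EMEM/F12 libraries, and EMEM/F12 library 3 was the highest of its medium. HLA-C rose from 1041 ± 175 to 1590 ± 58.2 (SD, n = 3 libraries), with a log2 ratio of means of 0.61 ± 0.14 (SE) and an adjusted p of 3.13e-11 in the authors' deposited table. Without EMEM/F12 library 3, DESeq2 on recovered reads gave a log2 fold change of 0.75.

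HLA-B (ENSG00000234745, chromosome 6, 31269491 to 31357188, minus strand) encodes a second classical heavy chain. It stood at 297, 351 and 747 normalised reads in the EMEM/F12 libraries and at 684, 693 and 657 in the HPLM libraries. The HPLM libraries lay close together, while EMEM/F12 library 3 was above all of them and libraries 1 and 2 were below all of them. HLA-B did not pass, with a mean of 465 ± 246 in EMEM/F12 and 678 ± 18.7 in HPLM (SD, n = 3 libraries, adjusted p = 0.268 in the authors' deposited table). Without EMEM/F12 library 3 its log2 fold change was 1.07, with an adjusted p of 1.19e-26 in DESeq2 and 1.61e-17 in edgeR. That library was singled out after its values were seen, so these p-values cannot stand as a test. Without EMEM/F12 library 1 or 2 instead, HLA-B did not pass in DESeq2 (adjusted p = 0.552 and 0.543). Limma-voom on all libraries called HLA-B (adjusted p = 0.0237).

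HLA-E (ENSG00000204592, chromosome 6, 30489467 to 30494205, plus strand) encodes a non-classical heavy chain that displays leader peptides of other class I chains to natural killer cells. Its normalised reads were 193, 225 and 401 in EMEM/F12 and 366, 333 and 291 in HPLM. Again EMEM/F12 library 3 was the highest of all libraries and libraries 1 and 2 the lowest. The means of 273 ± 112 and 330 ± 37.7 (SD, n = 3 libraries) did not pass (adjusted p = 0.515 in the authors' deposited table). Without EMEM/F12 library 3, its log2 fold change was 0.66 and its adjusted p 3.61e-06 in DESeq2 and 1.34e-07 in edgeR. The same limit holds as for HLA-B, and without EMEM/F12 library 1 or 2 HLA-E did not pass in DESeq2 (adjusted p = 0.871 and 0.784).

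The heavy chain genes were also compared with each other, per kilobase of longest transcript. The ratio of HLA-B to HLA-C was 0.368, 0.472 and 0.733 in EMEM/F12 and 0.503, 0.547 and 0.507 in HPLM. EMEM/F12 library 3 was above and libraries 1 and 2 were below all HPLM libraries. The ratio of HLA-B to HLA-E was 2.59, 2.62 and 3.13 in EMEM/F12 and 3.14, 3.50 and 3.80 in HPLM, where the media did not overlap by a narrow gap. The heavy chain genes are related in sequence, and some of them vary between people. Reads may therefore have been split or lost among them, and their values are uncertain. HLA-B and HLA-C also share 35 annotated exon bases, and the pseudogene AL671883.2 on the opposite strand shares 17.8% of HLA-B exon bases.

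**Figure D2:**
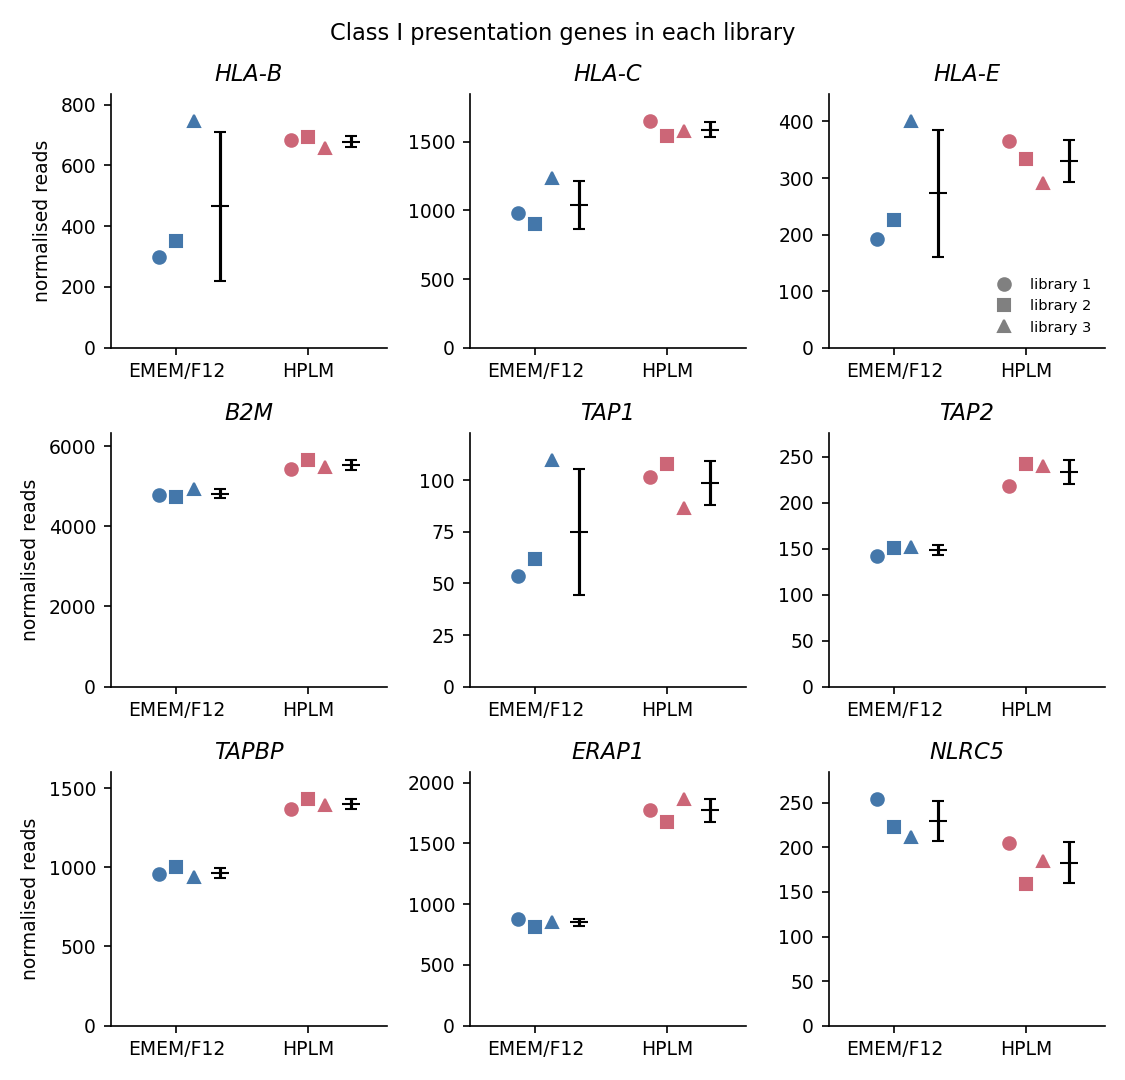
Normalised reads of the 9 genes in each library, by medium, on linear axes from 0. Points are libraries (circle, square and triangle for libraries 1, 2 and 3) and black bars are mean ± SD over 3 libraries. EMEM/F12 library 3 lies at or above the HPLM libraries for HLA-B, HLA-E and TAP1, while for HLA-C, B2M, TAP2, TAPBP and ERAP1 all HPLM libraries are higher and for NLRC5 all are lower.

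B2M (ENSG00000166710, chromosome 15, 44711487 to 44718877, plus strand) encodes the light chain that every class I heavy chain needs to reach the surface. It stood at 4773, 4739 and 4938 normalised reads in EMEM/F12 and at 5432, 5661 and 5473 in HPLM. The media did not overlap, and the rise was small, from 4817 ± 107 to 5522 ± 122 (SD, n = 3 libraries, 1.15-fold, adjusted p = 1.20e-05 in the authors' deposited table). Per kilobase, the ratio of HLA-C to B2M was 0.263, 0.244 and 0.320 in EMEM/F12 and 0.389, 0.348 and 0.368 in HPLM. All HPLM libraries lay above all EMEM/F12 libraries in this ratio. The media overlapped in the ratio of HLA-B to B2M (0.0966, 0.115 and 0.235 against 0.196, 0.190 and 0.186) and in that of HLA-E to B2M (0.0373, 0.0440 and 0.0751 against 0.0622, 0.0544 and 0.0490).

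The TAP transporter is a dimer of the TAP1 and TAP2 products. TAP2 (ENSG00000204267, chromosome 6, 32821833 to 32838780, minus strand) stood at 142, 151 and 152 normalised reads in EMEM/F12 and at 219, 242 and 240 in HPLM. It rose 1.57-fold with no overlap between media (148.6 ± 5.55 to 234 ± 13.1, SD, n = 3 libraries, adjusted p = 2.27e-05 in the authors' deposited table). A second annotated gene on the same strand, AL669918.1, shares 32.3% of the TAP2 exon bases, so the TAP2 count is uncertain.

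TAP1 (ENSG00000168394, chromosome 6, 32845209 to 32853978, minus strand) stood at 53.6, 61.6 and 109.9 normalised reads in EMEM/F12 and at 101.7, 107.7 and 86.7 in HPLM. EMEM/F12 library 3 was above all HPLM libraries, and libraries 1 and 2 were below all of them, as for HLA-B and HLA-E. TAP1 did not pass (75.0 ± 30.5 and 98.7 ± 10.8, SD, n = 3 libraries, adjusted p = 0.183 in the authors' deposited table). Without EMEM/F12 library 3, its log2 fold change was 0.78 and its adjusted p 0.00203 in DESeq2 and 6.38e-05 in edgeR. The same limit holds as for HLA-B, and without EMEM/F12 library 1 or 2 TAP1 did not pass in DESeq2 (adjusted p = 0.586 and 0.481). The ratio of TAP1 to TAP2 per kilobase was 0.724, 0.783 and 1.39 in EMEM/F12 and 0.894, 0.855 and 0.693 in HPLM, with the highest value in EMEM/F12 library 3 and overlap between media. The non-coding PSMB8-AS1 on the opposite strand shares 9.49% of TAP1 exon bases.

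Tapasin and the trimming enzyme were free of this library dependence. TAPBP (ENSG00000231925, chromosome 6, 33299694 to 33314387, minus strand), which encodes tapasin, stood at 955, 1002 and 936 normalised reads in EMEM/F12 and at 1370, 1433 and 1390 in HPLM. The media were well apart, and TAPBP rose 1.45-fold (965 ± 33.7 to 1398 ± 32.0, SD, n = 3 libraries, adjusted p = 2.56e-15 in the authors' deposited table). ERAP1 (ENSG00000164307, chromosome 5, 96760810 to 96808100, minus strand), which encodes the aminopeptidase that cuts peptides to the length class I molecules bind, stood at 878, 816 and 853 normalised reads in EMEM/F12 and at 1778, 1672 and 1864 in HPLM. ERAP1 had the largest change of the 9 in the authors' deposited table, a 2.09-fold rise (849 ± 31.3 to 1771 ± 96.1, SD, n = 3 libraries, adjusted p = 3.46e-53). ERAP1 lies opposite CAST, which shares 3.76% of its exon bases and whose log2 fold change was 0.69 in the authors' deposited table. The kit does not mark strand, so reads in the shared part cannot be assigned.

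NLRC5 (ENSG00000140853, chromosome 16, 56989485 to 57083531, plus strand), the class I transactivator, went the other way. It stood at 255, 223 and 212 normalised reads in EMEM/F12 and at 205, 159 and 184 in HPLM. The HPLM libraries lay below the EMEM/F12 libraries by a narrow gap, from 205 to 212. It fell from 229.8 ± 22.3 to 183 ± 23.0 (SD, n = 3 libraries), with an adjusted p of 0.0471 in the authors' deposited table. The call was lost in DESeq2 without EMEM/F12 library 1 (adjusted p = 0.248), EMEM/F12 library 2 (0.0963), HPLM library 2 (0.240) or HPLM library 3 (0.118).

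**Figure D3:**
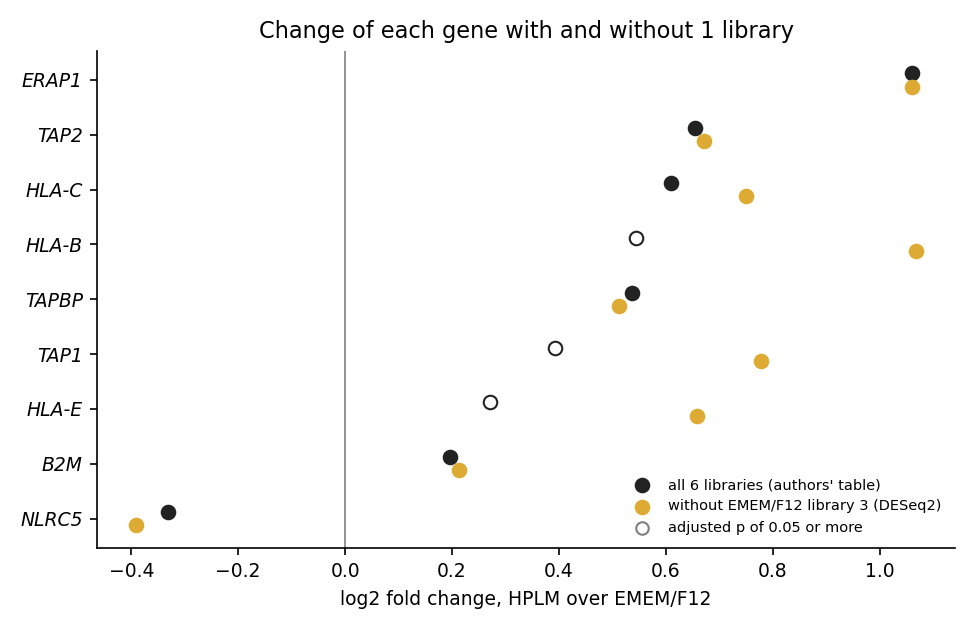
Log2 fold change of each gene, HPLM over EMEM/F12, from the authors' deposited table with all 6 libraries (black) and from DESeq2 without EMEM/F12 library 3 (yellow). Open circles did not reach an adjusted p under 0.05. HLA-B, TAP1 and HLA-E move from 0.54, 0.39 and 0.27 to 1.07, 0.78 and 0.66, and the others shift by less.

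Taking out EMEM/F12 library 3 changed the count of members that rose from 5 to 8 of 9 in both DESeq2 and edgeR, against 29.3% of genes in DESeq2 and 35.0% in edgeR. NLRC5 still fell in both, as did 30.4% and 35.7% of genes. Leaving out any other library gave 5 rises with either tool. HLA-B, HLA-E and TAP1 were at least 1.5 times higher in EMEM/F12 library 3 than in the mean of libraries 1 and 2 (2.31, 1.92 and 1.91 times), as were 6.28% of all genes. HLA-C was at 1.31 times, and the other 5 members lay between 0.886 and 1.04 times.

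Markers of the mesenchymal neuroblastoma state were higher in EMEM/F12 library 3 along with HLA-B, HLA-E and TAP1, as were some genes of other lists. Neuroblastoma lines can hold this motile cell state beside the adrenergic state. Of the 10 markers, 8 were at least 1.5 times higher in EMEM/F12 library 3 than in libraries 1 and 2. Their summed level was 14882, 17681 and 39654 normalised reads in EMEM/F12 and 35565, 37186 and 31311 in HPLM. Of the 9 fibroblast markers 6 were at least 1.5 times higher in that library, and their sum was 44847, 46998 and 93337 in EMEM/F12 and 79572, 82279 and 74760 in HPLM. All 13 adrenergic markers were lower in that library, at 0.79 to 0.93 times. No defining marker of these lists was at 0: PRRX1, a transcription factor of the mesenchymal state, stood at 20.6, 30.2 and 111 in EMEM/F12 and 78.9, 91.1 and 76.0 in HPLM. Without EMEM/F12 library 3, 8 of the 10 mesenchymal markers and 7 of the 9 fibroblast markers rose in HPLM in DESeq2, against 1 and 1 in the authors' deposited table. The other 2 fibroblast markers, PDGFRB (6124 to 6704 normalised reads in EMEM/F12 and 2299 to 2390 in HPLM) and LUM (153 to 159.8 and 64.4 to 90.3), fell in HPLM with all libraries and without that one. The part of these cells or states in the values of HLA-B, HLA-E, TAP1 and HLA-C was not tested. ERAP1, TAPBP and TAP2 stood in EMEM/F12 library 3 at 1.01, 0.957 and 1.04 times the mean of libraries 1 and 2. Other lists described below also held genes at least 1.5 times higher in that library. They were 3 of 4 class II genes, 2 of 4 class I-like partners of B2M and 3 of 14 interferon receptor and signalling genes. So were 2 of 12 ligands of natural killer receptors and checkpoint genes, but none of 11 peptidase genes and none of 13 promoter factors.

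**Figure D4:**
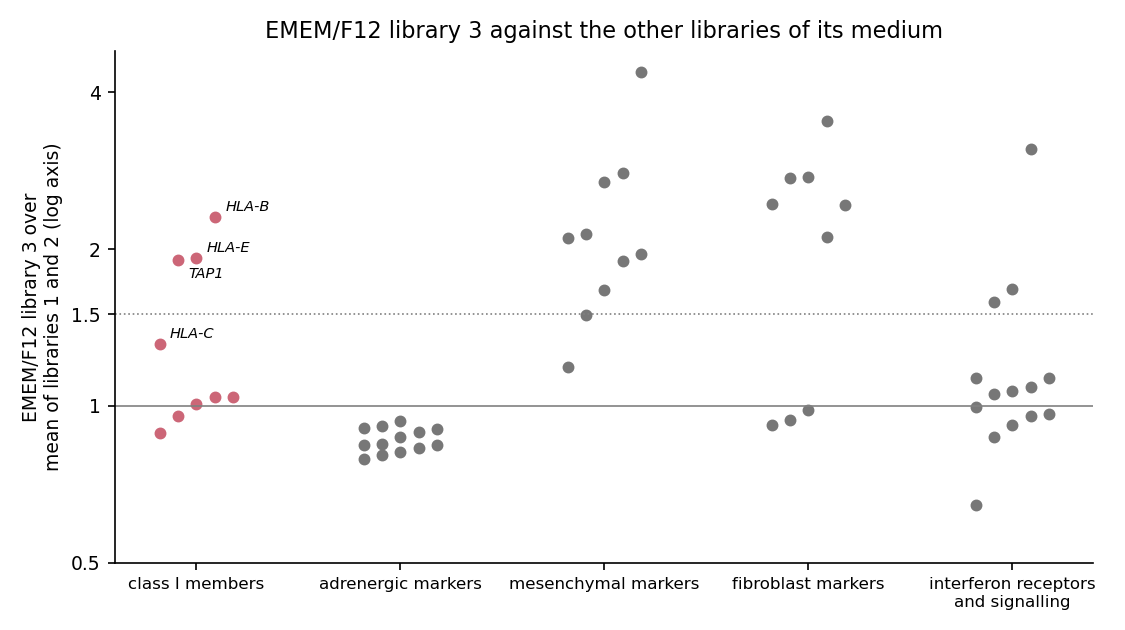
Level in EMEM/F12 library 3 over the mean of EMEM/F12 libraries 1 and 2 for each gene (points), on a log axis, for the 9 class I genes and 4 gene lists. The solid line marks 1 and the dotted line 1.5. HLA-B (2.31) lies in the range of both the mesenchymal and the fibroblast markers that were raised in that library. HLA-E (1.92) and TAP1 (1.91) lie low in the range of the raised mesenchymal markers. They lie below the raised fibroblast markers, of which FAP (2.11) is the lowest. All 13 adrenergic markers lie below 1. Of the 14 interferon receptor and signalling genes, 3 also lie above the dotted line.

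Levels of different genes were compared per kilobase of the longest annotated transcript. B2M was highest, at 2004 normalised reads per kilobase in EMEM/F12 and 2298 in HPLM. In HPLM the order was B2M, HLA-C (846), HLA-B (438), TAPBP (372), ERAP1 (322), HLA-E (127), TAP2 (41.1), TAP1 (33.4) and NLRC5 (26.8), and only the libraries of TAP1 and NLRC5 overlapped between neighbours. In EMEM/F12 the libraries of HLA-C (554) and HLA-B (300.5) overlapped, as did those of HLA-B and TAPBP (257). So did those of ERAP1 (155) and HLA-E (105), and of TAP2 (26.1) and TAP1 (25.4). Within each EMEM/F12 library HLA-C still stood above HLA-B, and ERAP1 above HLA-E, though narrowly in library 3 (155.3 and 154.3). The order of the other pairs differed between libraries. NLRC5 (33.7) stood above TAP2 in EMEM/F12 and below it in HPLM on this scale, with no overlap of libraries, while its libraries overlapped those of TAP1 in both media. With the union of exons as length, TAPBP stood above HLA-B in both media and NLRC5 stood below TAP2 in both, so these orders depend on the gene model.

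Other genes related to the pathway were put in lists, mostly by their known step. Their counts stand against 26.8% of all genes that rose and 28.8% that fell. Differences between lists were not tested. Of 11 genes listed under peptide loading and quality control in the endoplasmic reticulum 10 rose and none fell. Their median log2 fold change was 0.37 in the authors' deposited table. The list is broad, and SPPL2A and SPPL3, which count among the rises, are not genes of that step. CANX, the gene of the chaperone calnexin, rose from 16453 ± 157 to 21577 ± 242 normalised reads (SD, n = 3 libraries). PDIA3, which encodes the disulfide isomerase of the loading complex, rose 1.09-fold (not called in edgeR scaled on spike-ins, adjusted p = 0.121), and SPPL2A, an intramembrane protease gene, rose 1.36-fold. CALR, the calreticulin gene, did not pass (19464 ± 207 and 18802 ± 199, adjusted p = 0.204 in the authors' deposited table). ERAP2, a second trimming enzyme gene, rose from a low level of 13.6 ± 7.83 to 29.5 ± 3.92, and TAPBPL, the gene of the peptide editor TAPBPR, rose from 182 ± 35.6 to 240 ± 9.03. The ERAP2 call held in 1 of 6 DESeq2 fits that each left out a library and the TAPBPL call in 2 of 6.

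The genes of proteolysis before the transporter showed few rises. None of 6 immunoproteasome and activator genes rose in the authors' deposited table (in edgeR 1 rose), and PSME3 (log2 ratio -0.31 ± 0.02) and PSME1 (-0.30 ± 0.08), which encode proteasome activator subunits, fell. The immunoproteasome genes PSMB8 (40.9 ± 7.10 and 49.1 ± 3.41 normalised reads) and PSMB10 (91.9 ± 7.74 and 113 ± 7.02) did not pass, at adjusted p = 0.472 and 0.183 in the authors' deposited table. In edgeR PSMB10 passed (adjusted p = 0.0296). PSMB9 was not among the lines of the table. Of the 3 catalytic subunit genes of the constitutive proteasome, PSMB7 fell slightly (-0.14 ± 0.01). Of 11 peptidase genes, most of them cytosolic, 6 fell and 1 rose. THOP1, which encodes a peptidase that destroys class I peptides in the cytosol, fell from 2761 ± 151 to 1171 ± 52.9 normalised reads, and LAP3 fell too (-0.38 ± 0.03). LNPEP, the gene of an endosomal aminopeptidase used in cross-presentation, rose 1.70-fold.

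Among 13 factors that act on class I promoters 2 rose and 5 fell. In edgeR 4 rose and 5 fell, and in DESeq2 without EMEM/F12 library 3 the counts were 3 and 3. IRF1, the interferon regulatory factor that binds interferon response elements such as those shown above, stood at 145, 121 and 141 normalised reads in EMEM/F12 and at 591, 559 and 586 in HPLM. It rose 4.26-fold with wide separation of the media (adjusted p = 1.12e-64 in the authors' deposited table). RELA, an NF-kB subunit gene, rose (0.36 ± 0.02), while NFKB1, which encodes its partner p50, fell (-0.59 ± 0.03). RFX5, which encodes the factor that works with NLRC5 at the promoter, fell from 1674 ± 14.0 to 1205 ± 16.9. CIITA, the class II transactivator gene, fell from 16.7 ± 3.98 to 5.79 ± 2.55 normalised reads, and its call was lost without EMEM/F12 library 1 or 3 or HPLM library 1.

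Of 14 interferon receptor and signalling genes 7 rose and 2 fell. STAT2, a mediator gene of type I interferon signals, rose 1.59-fold and SOCS1, a feedback inhibitor gene, rose from 22.7 ± 17.1 to 44.7 ± 4.33, a call that held in 1 of 6 DESeq2 fits that each left out a library. IFNGR2, which encodes a chain of the interferon-gamma receptor, fell (-0.87 ± 0.07). IFNAR2, which encodes a chain of the type I interferon receptor, fell as well (-0.47 ± 0.05), and its call was lost in all 6 of these fits. The genes of the partner chains, IFNGR1 (0.51 ± 0.04) and IFNAR1 (0.45 ± 0.04), rose instead, and their calls held in all 6 fits. Of 6 core genes of polycomb repressive complex 2, a silencer of class I genes in some tumours, 5 fell and 1 rose: the methyltransferase gene EZH2 fell from 1243 ± 73.4 to 675 ± 31.1, EED fell (-0.69 ± 0.06), and EZH1 rose (0.51 ± 0.09).

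**Figure D5:**
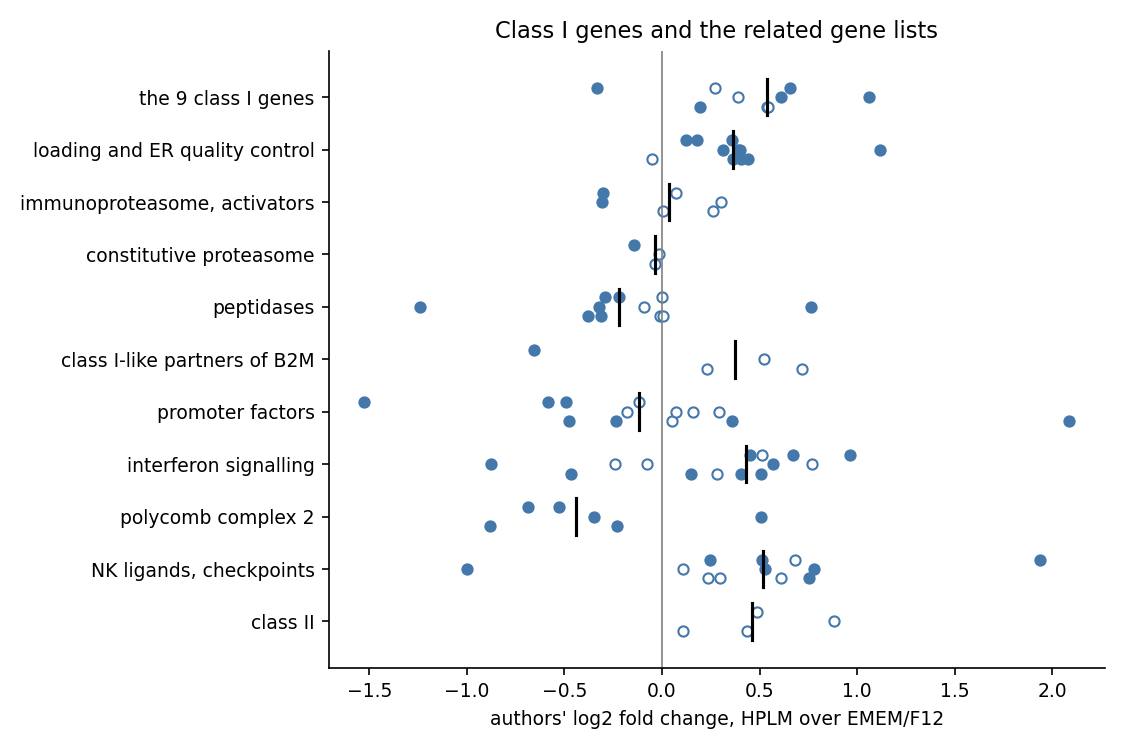
Authors' log2 fold change, HPLM over EMEM/F12, of each gene (points) in the 9 class I genes and 10 related lists, with the list's median as a black line. Filled points reached an adjusted p under 0.05. Genes of the loading and quality control list lie above 0 except CALR, peptidases mostly below, and IRF1 is the point farthest to the right.

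Other surface molecules read by T cells and natural killer cells were measured as well. Of 12 ligands of natural killer receptors and checkpoint genes 6 rose and 1 fell. ULBP1, which encodes a stress ligand of the activating receptor NKG2D, rose 3.83-fold (120 ± 4.34 to 458 ± 11.3 normalised reads, SD, n = 3 libraries). ULBP3 also rose (27.7 ± 4.45 to 47.9 ± 17.0), a call that held in 2 of 6 DESeq2 fits that each left out a library, and NCR3LG1, the gene of the NKp30 ligand B7-H6, fell from 337 ± 38.3 to 168 ± 11.8. CD274, the PD-L1 gene, did not pass (20.1 ± 5.99 and 32.2 ± 4.83, adjusted p = 0.135 in the authors' deposited table, 0.0336 in edgeR). Of 4 class I-like partners of B2M only FCGRT, the neonatal Fc receptor gene, passed, and it fell (-0.65 ± 0.02). Of 11 class II presentation genes 4 were in the table. Their summed level was 25.8, 29.1 and 59.1 normalised reads in EMEM/F12 libraries 1 to 3 and 50.4, 50.6 and 56.3 in HPLM. EMEM/F12 library 3 was again above, and libraries 1 and 2 below, all HPLM libraries. None of the 4 passed in the authors' deposited table, and in edgeR 1 rose.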

How the data were processed

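Polyadenylated RNA was sequenced with a TruSeq version 2 kit, per the labels' protocols. The submitters' processing notes list GRCh38 as the build and, without saying what each did, Subread 1.5.2, STAR 2.5.2b, DESeq2 and Trimmomatic 0.36. Annotation release and strand setting were not given in the sources used here. In 1 table the authors deposited their log2 fold changes and with their p-values and adjusted p-values, per the file headers. For each of 6 libraries the table has a signal, in which the authors divided counts by 1 factor per library, and 100% of deposited values were whole multiples of 1 read within 0.01 reads. A read is worth 0.894 to 1.16 normalised reads, and a count of 0 allows 3 reads, for counting error only. DESeq2 1.42.0 on the recovered reads called the same 8908 lines (spike-ins included) as the authors' table, out of 8908 called in either.

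The authors' test is the main one, since GEO lists 1 sample per medium, and edgeR 4.0.16 (quasi-likelihood, called 5259 genes higher and 4999 lower), limma 3.58.1 and DESeq2 on recovered reads were alternatives, tested on simulated data. All adjusted p-values are Benjamini-Hochberg values over all genes. Alternatives left out each library, changed thresholds, scaling or filters, or added a library-number block. Means, SDs and propagated SEs used Python 3.11.15. GENCODE release 29 gave positions and lengths, and matched 15955 lines. Named genes are the 9 members, up to 2 rises and 2 falls per list among called genes with a mean of at least 10, and 14 genes named whatever their change. Some of these are not reported here. Further genes were named after their values were seen. Members and lists were chosen with earlier results of these data known.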

Additional observations from a re-analysis of the deposited data

How the results depend on the processing

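The 5 members that rose kept their direction and call in every alternative run except the 1.5-fold minimum, which left 3 rising and 0 falling members, and 1963 rising and 2243 falling genes. NLRC5 kept its direction throughout, but 0 members fell at an adjusted p under 0.01. Leaving out 1 library at a time gave 5 to 8 members that rose, with 8 only without EMEM/F12 library 3, and 0 to 1 that fell. With the union of exons as length, 5 of 9 members kept their rank per kilobase in EMEM/F12. Library numbers did not pair the libraries, since deviations of same-numbered libraries correlated at -0.06, -0.04 and -0.11. With the number as a replicate block, edgeR called 6 members higher (HLA-B added, adjusted p = 0.0352) and 1 lower, and 5096 genes higher and 4769 lower. Limma-voom also called 6 members higher. Spike-in scaling moved the median gene from 0.04 to -0.03 in edgeR and changed no member's call. In the fold changes of single members no direction reversed: 188 alternatives kept the call, 8 gained and 11 lost it. Among counts of the related lists, 12 moved by more than 1.5 times and 76 did not. The DESeq2 fits without a library, the list counts without EMEM/F12 library 3 and the shorter promoter core were chosen after seeing the data. TAP1, at 53.6 to 109.9 normalised reads, is the member where depth limits the most.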
